A study of Mus musculus with 15 samples.

Results

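The insulin-like growth factor (IGF) binding protein genes Igfbp2, Igfbp3, Igfbp4, Igfbp5, Igfbp6 and Igfbp7 were followed in RNA sequencing of sorted mouse lymphatic endothelial cells. These 6 genes, of 21839 in the count table, were picked by name, and values of these same libraries were known when they were picked. Their levels and their differences between groups are therefore a description and carry no p-value. All mice were of strain C57bl/6, aged 10 weeks and transplanted with a melanoma line described as lymphangiogenic. The groups were cells of the tumor (Tumor), of the lymph node that drains it (TdLN) and of a lymph node that does not (NdLN), with 5 libraries each. The NdLN libraries, too, came from mice that carried the tumor. The sort kept cells with CD31 (gene Pecam1) and gp38 (gene Pdpn) and without CD45 (gene Ptprc). Whether the 5 libraries of a group are 5 animals or pools is not stated, so every error and p-value measures only the spread between these libraries.

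IGF binding proteins are secreted proteins that hold IGF1 and IGF2 in blood and tissue. They lengthen the life of the growth factors, keep them from the IGF1 receptor and release them when a protease cuts the binding protein. IGFBP3 and IGFBP5 also form a larger circulating complex with the acid-labile subunit, IGFBP6 prefers IGF2, and IGFBP7 binds IGFs weakly and is known as a secreted product of endothelial cells that binds the endothelial receptor CD93.

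Igfbp6 and Igfbp3 were higher in Tumor libraries and Igfbp5 was lower there, so the promoters of these 3 genes are shown. Each window runs from 250 bases before to 50 after the gene's start in RefSeq, build GRCm38.p6, and is written 5′ to 3′ on the gene's strand, with matches to the motifs below in capitals. The Igfbp6 window lies at chr15:102143936-102144235 on the plus strand, the Igfbp3 window at chr11:7213874-7214173 on the minus strand, and the Igfbp5 window at chr1:72874816-72875115 on the minus strand.
Igfbp6: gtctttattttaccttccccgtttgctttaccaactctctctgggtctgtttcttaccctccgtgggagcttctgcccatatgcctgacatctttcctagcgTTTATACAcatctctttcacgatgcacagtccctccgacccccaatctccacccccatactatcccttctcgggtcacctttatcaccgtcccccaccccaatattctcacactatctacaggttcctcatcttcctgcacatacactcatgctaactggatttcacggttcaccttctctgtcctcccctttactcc
Igfbp3: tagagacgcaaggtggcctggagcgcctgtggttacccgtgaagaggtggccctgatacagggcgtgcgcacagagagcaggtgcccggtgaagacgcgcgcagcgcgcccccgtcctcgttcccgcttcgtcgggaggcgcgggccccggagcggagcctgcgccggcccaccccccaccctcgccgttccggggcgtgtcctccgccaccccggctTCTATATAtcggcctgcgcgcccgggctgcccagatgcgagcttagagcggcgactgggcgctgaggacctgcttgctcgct
Igfbp5: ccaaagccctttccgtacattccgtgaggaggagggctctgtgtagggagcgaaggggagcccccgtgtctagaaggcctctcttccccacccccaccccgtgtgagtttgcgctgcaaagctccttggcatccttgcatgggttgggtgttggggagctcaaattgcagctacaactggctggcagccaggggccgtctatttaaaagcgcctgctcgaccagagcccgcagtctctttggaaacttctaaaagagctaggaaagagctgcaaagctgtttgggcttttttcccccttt
Both strands were searched for TATANA (TATA box), GGGCGG (GC box), ACGTG (core of the hypoxia factor site) and TGANTCA (AP-1 site), which 24.7%, 35.7%, 19.6% and 7.81% of 32851 mouse promoter windows held. Igfbp3 had overlapping TATA box matches that begin 32 and 30 bases before the start, and no match to the other motifs. Igfbp6 had overlapping TATA box matches 148 and 146 bases before the RefSeq start and none of the others. The whole Igfbp6 window lies upstream of the gene's start in the GENCODE M21 annotation, 102144362. The Igfbp5 window had no match to any of the 4 motifs. Of the members not shown, Igfbp4 had a TATA box match 28 bases before its start, Igfbp7 had 4 GC box matches and 1 hypoxia core, and the upstream Igfbp2 window had 3 GC boxes and 2 overlapping hypoxia cores. Igfbp2 also has a downstream window, chr1:72825137-72825436, with 1 AP-1 site match that begins 39 bases before that start. GC content was 49.7% in the Igfbp6 window, 56.3% in that of Igfbp5 and 71.7% in that of Igfbp3. A match describes letters only and is no evidence of binding.

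All 6 genes are protein-coding, and positions are those of GENCODE M21 in GRCm38. Igfbp2 (ENSMUSG00000039323, chr1:72824503-72852474, plus strand) and Igfbp5 (ENSMUSG00000026185, chr1:72857932-72874884, minus strand) lie tail to tail, 5457 bases apart. Igfbp3 (ENSMUSG00000020427) is at chr11:7206086-7213923 on the minus strand, 3539 bases from Igfbp1. Igfbp4 (ENSMUSG00000017493) is at chr11:99041244-99054392 on the plus strand, and Igfbp6 (ENSMUSG00000023046) at chr15:102144362-102149511 on the plus strand. Igfbp7 (ENSMUSG00000036256, chr5:77349240-77408041, minus strand) overlaps Polr2b, which is read from the opposite strand, by 85 exon bases. The library kit does not mark strand, so reads in those bases cannot be told apart. Over all libraries together, all counts of Polr2b came to 18.8% of the Igfbp7 counts. By group, Polr2b had 18534 counts against 30743 of Igfbp7 in Tumor, 19464 against 181607 in TdLN and 20242 against 97970 in NdLN libraries. How many of them fall in the shared bases is not known from these counts.

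Totals were 23830337 to 34577494 counts in Tumor libraries, 32134127 to 37043976 in TdLN libraries and 31894931 to 37437282 in NdLN libraries. Pecam1, Pdpn and the lymphatic marker Prox1 were present in every library. Levels are in CPM, counts scaled by the library's total after a correction factor (TMM). Prox1 was at 105 ± 22.7 CPM in Tumor, 539 ± 74.9 CPM in TdLN and 766 ± 52.9 CPM in NdLN libraries (SD, n = 5, as for all means below). Ptprc, the gene sorted against, was at 1.68 ± 1.45 CPM in Tumor, 1.10 ± 0.943 CPM in TdLN and 5.43 ± 3.77 CPM in NdLN libraries. The 9 lymphatic endothelium markers summed to 3534 to 4999 CPM in Tumor, 6706 to 8387 CPM in TdLN and 7846 to 10222 CPM in NdLN libraries. Tumor libraries also carried pigment cell RNA, since 8 melanoma markers, led by Pmel, summed to 19529 to 32495 CPM there, against 5.60 to 23.9 CPM in TdLN and 12.2 to 31.4 CPM in NdLN libraries. Fibroblast and reticular cell markers (9 genes) summed to 1358 to 10283 CPM in Tumor, 114 to 345 CPM in TdLN and 231 to 527 CPM in NdLN libraries. Blood endothelium markers (9 genes), of which Plvap was the highest, reached 719.5 to 1285 CPM in Tumor, 872 to 5431 CPM in TdLN and 1427 to 5522 CPM in NdLN libraries. Macrophage markers (9) summed to 203 to 349 CPM in Tumor, 87.0 to 181 CPM in TdLN and 49.8 to 135 CPM in NdLN libraries. For pericyte and smooth muscle markers (9) the sums were 157 to 327 CPM in Tumor, 200.0 to 257 CPM in TdLN and 103 to 214 CPM in NdLN libraries, and for leukocyte markers (8) 6.69 to 15.5 CPM in Tumor, 2.92 to 9.65 CPM in TdLN and 3.06 to 37.8 CPM in NdLN libraries. Epithelial markers (6) summed to at most 4.14 CPM, with Krt5 and Krt14 at 0 in all TdLN libraries. In these bulk samples, fewer cells of a type and less RNA per cell cannot be told apart. The part of these cell types in the levels below was not tested.

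Igfbp6, whose product favours IGF2, was the tested member whose Tumor level stood farthest above the nodes. Tumor libraries 1 to 5 had 40.5, 61.6, 33.7, 29.1 and 164 CPM of Igfbp6. TdLN libraries had 0.548, 0.295, 0.489, 0.704 and 2.12 CPM, and NdLN libraries 7.24, 4.29, 2.57, 7.26 and 1.98 CPM. Every Tumor library was above every node library, Tumor 5 being the highest, while the TdLN and NdLN groups overlapped through TdLN 5 and NdLN 5. Means were 65.7 ± 56.2 CPM in Tumor, 0.831 ± 0.735 CPM in TdLN and 4.67 ± 2.51 CPM in NdLN libraries. The log2 fold change of Tumor over TdLN was 6.31 ± 0.70 (SE), a fold of 79.3 that rests on 138 counts in the 5 TdLN libraries together. That of Tumor over NdLN was 3.82 ± 0.61, and that of TdLN over NdLN was -2.49 ± 0.62. Fibroblast marker sums were 1358, 6517, 4203, 2727 and 10283 CPM in Tumor libraries 1 to 5. Tumor 5 and Tumor 2 were thus the highest in both Igfbp6 and that sum, while Tumor 1, next in Igfbp6, had the lowest sum. Without Tumor 5 the Tumor over TdLN value was 5.63 and the Tumor over NdLN value 3.14, and without TdLN 5 the Tumor over TdLN value was 6.98 and the TdLN over NdLN value -3.17.

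Igfbp3, the main IGF carrier of blood, was uneven among Tumor libraries. They had 76.2, 172, 21.2, 14.3 and 16.2 CPM, TdLN libraries had 1.59, 3.55, 2.10, 40.7 and 4.94 CPM, and NdLN libraries had 11.1, 7.07, 6.79, 11.4 and 11.3 CPM. All Tumor libraries were above all NdLN libraries, but TdLN 4 was above 3 of the 5 Tumor libraries. NdLN libraries were close together, with a highest level 1.67 times the lowest, against 12.0 times in Tumor and 25.7 times in TdLN libraries. Means were 60.0 ± 67.6 CPM in Tumor, 10.6 ± 16.9 CPM in TdLN and 9.52 ± 2.37 CPM in NdLN libraries. The log2 fold change was 2.50 ± 0.90 for Tumor over TdLN and 2.65 ± 0.91 for Tumor over NdLN. These values depended on single libraries. Without TdLN 4 the Tumor over TdLN value was 4.30, and without Tumor 2 it was 1.56, with 1.71 for Tumor over NdLN. Between the nodes the value was 0.15 ± 0.86 with all libraries and -1.65 without TdLN 4.

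Igfbp5, which also binds extracellular matrix, was lowest in Tumor libraries and highest in NdLN libraries. Tumor libraries had 11.5, 46.2, 25.1, 7.53 and 19.9 CPM, TdLN libraries 91.5, 54.1, 213, 114 and 96.0 CPM, and NdLN libraries 628, 629, 296, 349 and 360.1 CPM. No 2 groups overlapped, since the highest Tumor library was below the lowest TdLN library, and the highest TdLN library was below the lowest NdLN library. Means were 22.0 ± 15.2 CPM in Tumor, 114 ± 59.8 CPM in TdLN and 452 ± 163 CPM in NdLN libraries. The log2 fold change was -2.37 ± 0.46 for Tumor over TdLN, -4.36 ± 0.50 for Tumor over NdLN and -1.99 ± 0.45 for TdLN over NdLN. NdLN 1 and NdLN 2 were the highest of their group, and without both the TdLN over NdLN value was -1.56 and the Tumor over NdLN value -3.93. The lymphatic marker sum also had its lowest range in Tumor and its highest in NdLN libraries, but not all 9 markers followed it. Ccl21a averaged 1227 ± 367 CPM in Tumor, 135 ± 71.0 CPM in TdLN and 105 ± 33.7 CPM in NdLN libraries. Of the 9, 2 passed the test as higher and 5 as lower in Tumor over TdLN. In Tumor over NdLN 2 passed as higher and 4 as lower, and in TdLN over NdLN 1 as higher and 0 as lower.

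Igfbp4, a binding protein that mostly restrains IGFs and is cut by PAPP-A, was abundant everywhere. Tumor libraries had 1191, 1505, 1741, 1214 and 1001 CPM, TdLN libraries 2955, 2587, 817, 2364 and 2135 CPM, and NdLN libraries 1624, 1408, 2301, 1756 and 2362 CPM. All groups overlapped. TdLN 3 had the lowest level of the 15 libraries, while the other TdLN libraries were above all Tumor libraries. Means were 1330.3 ± 292 CPM in Tumor, 2172 ± 815 CPM in TdLN and 1890.1 ± 422 CPM in NdLN libraries. The log2 fold change was -0.71 ± 0.27 for Tumor over TdLN, -0.51 ± 0.27 for Tumor over NdLN and 0.20 ± 0.27 for TdLN over NdLN.

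Igfbp7, the endothelial member with low IGF affinity, varied more within the node groups than its group means differed. Tumor libraries had 306, 258, 283, 67.2 and 29.1 CPM. TdLN libraries had 296, 527, 133, 2414 and 2001 CPM, and NdLN libraries 679, 1601, 225, 189.8 and 215 CPM. Every pair of groups overlapped, and the highest TdLN library had 18.2 times the level of the lowest. Means were 189 ± 130.2 CPM in Tumor, 1074 ± 1054 CPM in TdLN and 582 ± 605 CPM in NdLN libraries. The log2 fold change was -2.51 ± 0.88 for Tumor over TdLN, -1.62 ± 0.86 for Tumor over NdLN and 0.88 ± 0.84 for TdLN over NdLN. Without both NdLN 1 and NdLN 2 it was -0.16 for Tumor over NdLN and 2.36 for TdLN over NdLN. Polr2b, the overlapping gene, was at 109.6 ± 13.3 CPM in Tumor, 114 ± 6.43 CPM in TdLN and 121 ± 8.19 CPM in NdLN libraries.

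Igfbp2, an IGF carrier that can also bind integrins, was near the limit of detection and did not pass the filter on low counts. Its counts were 19, 29, 23, 9 and 4 in Tumor, 1, 5, 3, 7 and 0 in TdLN and 0, 0, 2, 2 and 1 in NdLN libraries. Tumor counts were above all NdLN counts and overlapped with TdLN counts. The limit that a count of 0 allows, 3 counts, was 0.0801 to 0.126 CPM per library without the scaling factor, and covers counting error only. The sums were 84 counts in Tumor, 16 in TdLN and 5 in NdLN libraries, and no fold change is given. Igfbp1, the remaining classical member, had 2 counts in Tumor, 0 in TdLN and 1 in NdLN libraries together.

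**Figure D1:**
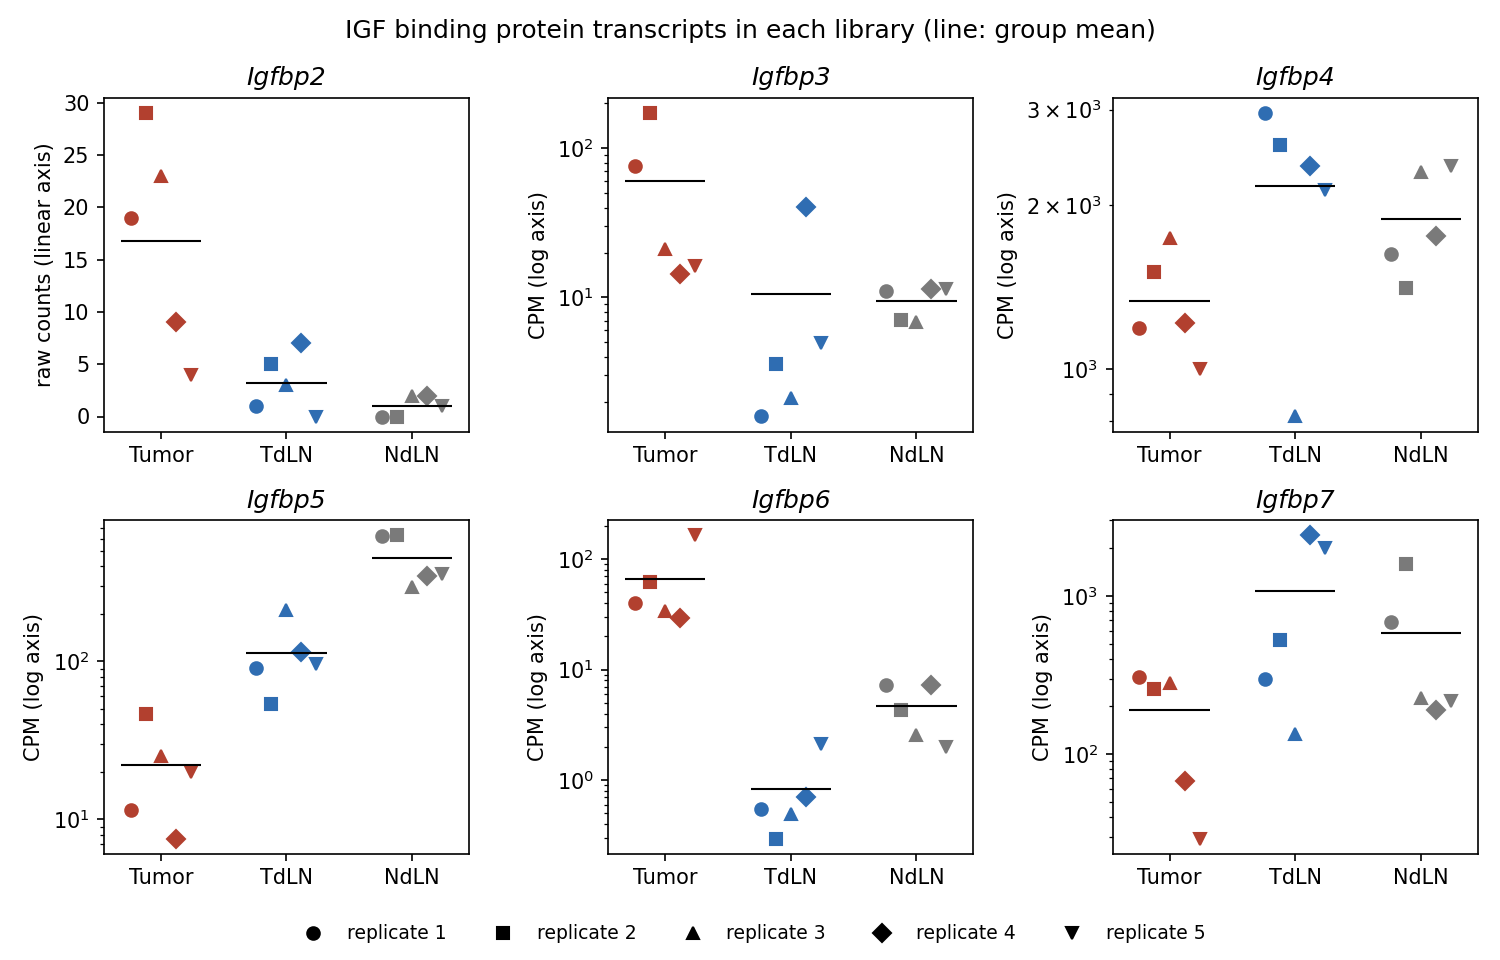
Level of each IGF binding protein gene in each library (1 point per library, marker shape by replicate number, horizontal line at the group mean, vertical axis in CPM on a log scale, or in raw counts on a linear scale for Igfbp2). Igfbp5 groups do not overlap, Igfbp6 lies above 29 CPM in every Tumor library and below 7.3 CPM in every node library, and Igfbp7 spreads widely within each group.

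Of the 6 members 5 passed the low count filter and entered the edgeR fit. Because they were chosen on these libraries, the counts that follow stand beside the share of all 13887 tested genes and nothing is read from them. Between Tumor and TdLN, 2 members passed the test as higher (Igfbp3 and Igfbp6) and 3 as lower (Igfbp4, Igfbp5 and Igfbp7), where 31.9% of all genes passed as higher and 30.1% as lower. Groups did not overlap for 2 of the 5, Igfbp5 and Igfbp6, against 46.6% of all genes. Between Tumor and NdLN, 2 passed as higher (Igfbp3 and Igfbp6), 1 as lower (Igfbp5) and 2 did not pass, with 34.0% and 32.5% of all genes higher and lower. There 3 of the 5 did not overlap, Igfbp3, Igfbp5 and Igfbp6, against 54.6% of all genes. Between TdLN and NdLN, 0 passed as higher, 2 as lower (Igfbp5 and Igfbp6) and 3 did not pass, where 1.84% of all genes were higher and 1.64% lower. There 1 of the 5, Igfbp5, did not overlap, against 7.83% of all genes. Tumor over TdLN and Tumor over NdLN share the Tumor libraries, and each shares its node libraries with TdLN over NdLN, so the values are given side by side only.

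Several of these calls were lost when 1 library was left out. Such a fit also holds fewer libraries, so a lost call alone does not show that the library drove the difference. The TdLN over NdLN call of Igfbp5 was lost without TdLN 1, TdLN 2, TdLN 5, NdLN 1 or NdLN 2, where the log2 fold change of all 10 such fits ran from -2.35 to -1.81. That of Igfbp6 was lost in 7 of 10 (range -3.17 to -2.28), kept only without TdLN 5, NdLN 3 or NdLN 5. In Tumor over TdLN, Igfbp3 lost its call without Tumor 2, TdLN 2, TdLN 3 or TdLN 5, Igfbp7 without TdLN 4 or TdLN 5, and Igfbp4 in 6 of 10 fits, namely without Tumor 1, Tumor 4, Tumor 5, TdLN 1, TdLN 2 or TdLN 4. In Tumor over NdLN, Igfbp3 lost its call without Tumor 2. Without NdLN 1 and NdLN 2 together, that call of Igfbp3 (2.61) and the TdLN over NdLN calls of Igfbp5 (-1.56) and Igfbp6 (-2.24) were lost. Both Tumor calls of Igfbp5 and of Igfbp6 held in all 10 fits that left out a library. The share of all called genes that did so was not counted, and nothing is read from this.

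**Figure D2:**
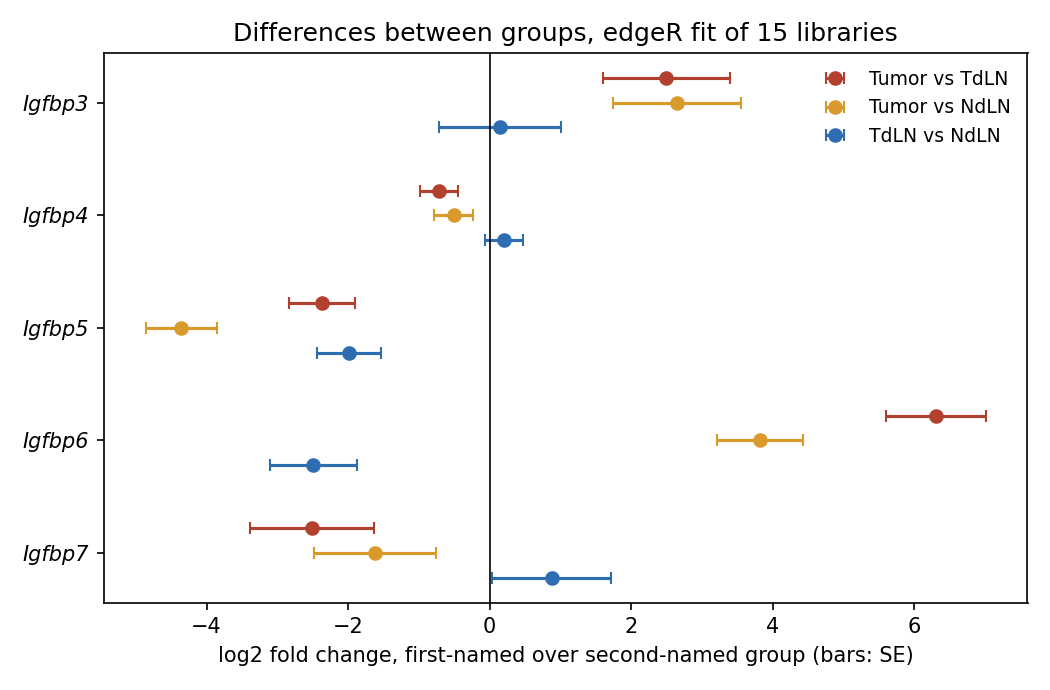
Log2 fold change of the 5 members in the edgeR fit (horizontal axis, first-named over second-named group, bars show the SE, 15 libraries). Igfbp6 lies farthest to the right, at 6.31 for Tumor over TdLN, and Igfbp5 is below 0 in all 3 comparisons, down to -4.36 for Tumor over NdLN.

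To compare members with each other, levels were divided by the length of their merged exons, as CPM per kilobase. In Tumor libraries the order of levels was Igfbp4 (301 ± 66.1), Igfbp7 (156 ± 108), Igfbp6 (59.1 ± 50.5), Igfbp3 (19.2 ± 21.6), Igfbp5 (3.67 ± 2.53) and Igfbp2 (0.277 ± 0.165). In TdLN libraries it was Igfbp7 (888 ± 872), Igfbp4 (492 ± 185), Igfbp5 (18.9 ± 9.96), Igfbp3 (3.38 ± 5.40), Igfbp6 (0.748 ± 0.661) and Igfbp2 (0.0498 ± 0.0442). NdLN libraries had Igfbp7 (481 ± 500.4), Igfbp4 (428 ± 95.6), Igfbp5 (75.3 ± 27.1), Igfbp6 (4.20 ± 2.25), Igfbp3 (3.04 ± 0.758) and Igfbp2 (0.0162 ± 0.0166). Igfbp5 thus was the 3rd of the family in both node groups and the 5th in Tumor libraries, where Igfbp6 was the 3rd. Neighbours in these orders differed by less than the SD of at least 1 of them for Igfbp7 and Igfbp4 in both node groups and for Igfbp6 and Igfbp3 in all 3 groups. In Tumor libraries this also held for Igfbp7 and Igfbp6 and for Igfbp3 and Igfbp5. With the longest transcript as the length, Igfbp4 (493 ± 110.2) came before Igfbp7 (485 ± 504) in NdLN libraries.

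Igfbp4 and Igfbp7 together made up most of the family's RNA in every library. Igfbp4 held 57.4% ± 11.4 of the family's CPM per kilobase in Tumor, 45.6% ± 22.8 in TdLN and 50.9% ± 23.0 in NdLN libraries. Igfbp7 held 26.2% ± 15.2 in Tumor, 51.2% ± 24.4 in TdLN and 40.4% ± 23.5 in NdLN libraries. The share of Igfbp6 was 12.5% ± 13.3 in Tumor libraries, where it ran from 4.52% to 36.2%, against 0.0649% ± 0.0459 in TdLN and 0.485% ± 0.355 in NdLN libraries. Igfbp5 held 0.651% ± 0.342 in Tumor, 2.94% ± 4.36 in TdLN and 7.90% ± 1.75 in NdLN libraries. Its NdLN shares, 5.97% to 10.0%, were above all Tumor shares, 0.326% to 1.14%, and overlapped with the TdLN shares, 0.740% to 10.7%. Among 13855 tested genes with a length, Igfbp7 ranked 26th and Igfbp4 61st by mean CPM per kilobase in TdLN libraries.

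**Figure D3:**
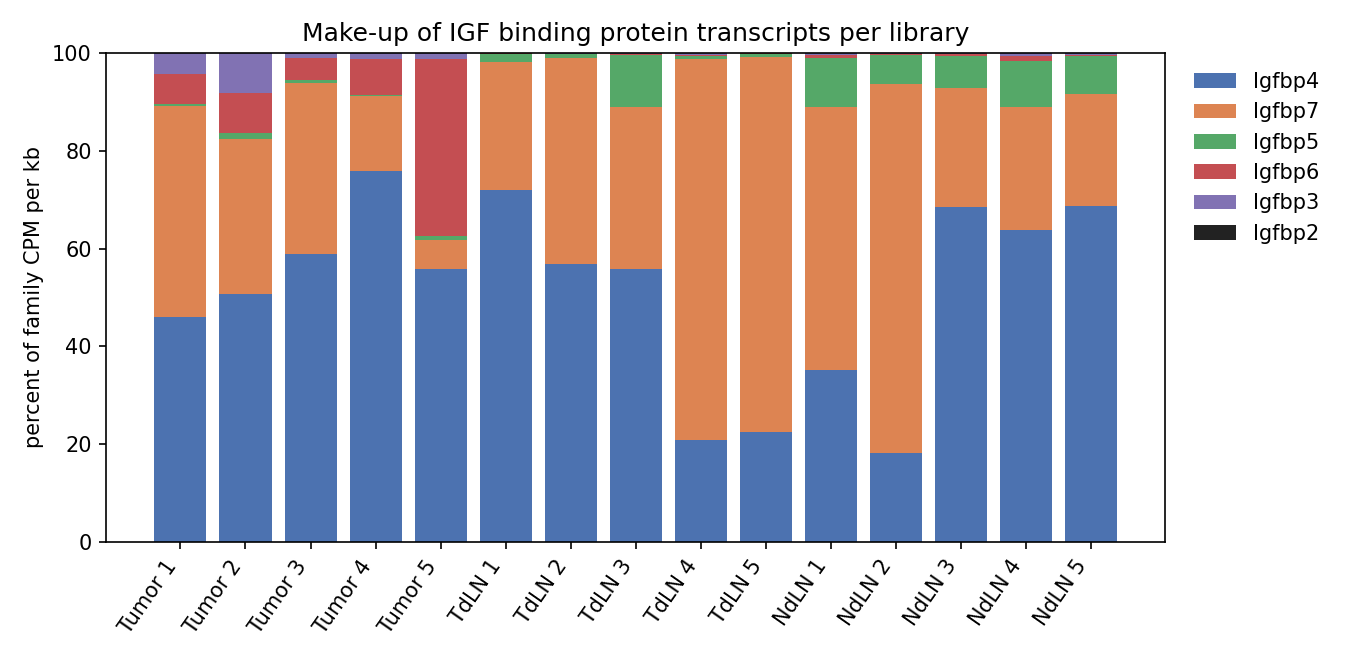
Share of each member in the family's summed CPM per kilobase of merged exon (vertical axis, percent, 1 bar per library). Igfbp4 and Igfbp7 fill most of each bar, Igfbp6 takes 36.2% in Tumor 5, and Igfbp2 is too small to be seen.

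Within groups, Igfbp7 moved with many other genes. After the mean of each group was subtracted from log2 CPM, 254 of 9064 compared genes had a Pearson r of at least 0.9 with Igfbp7 over the 15 libraries, against 29 with Igfbp3, 5 with Igfbp4, 0 with Igfbp5 and, of 9065 genes, 0 with Igfbp6. The first component of the variation within groups, which held 22.8% of it, had an r of 0.96 with Igfbp7, 0.61 with Igfbp3, 0.41 with Igfbp4, 0.18 with Igfbp5 and 0.13 with Igfbp6. These are descriptions over 15 libraries that share depth and preparation, and the component was computed from the same libraries. On this component TdLN 4 (0.38), NdLN 2 (0.36), Tumor 2 (0.26) and TdLN 5 (0.25) were highest, and TdLN 3 (-0.52) and Tumor 5 (-0.37) lowest. Igfbp7 deviated from its group mean by 1.94 in TdLN 4, 1.67 in TdLN 5 and 2.01 in NdLN 2 on the log2 scale, and by -2.25 in TdLN 3 and -2.20 in Tumor 5. TdLN 4 also had the highest Igfbp3 deviation, 3.08. The 254 genes had a median transcript GC content of 50.0%, against 49.7% for all compared genes, and a median transcript length of 3693 bases, against 3471 bases.

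**Figure D4:**
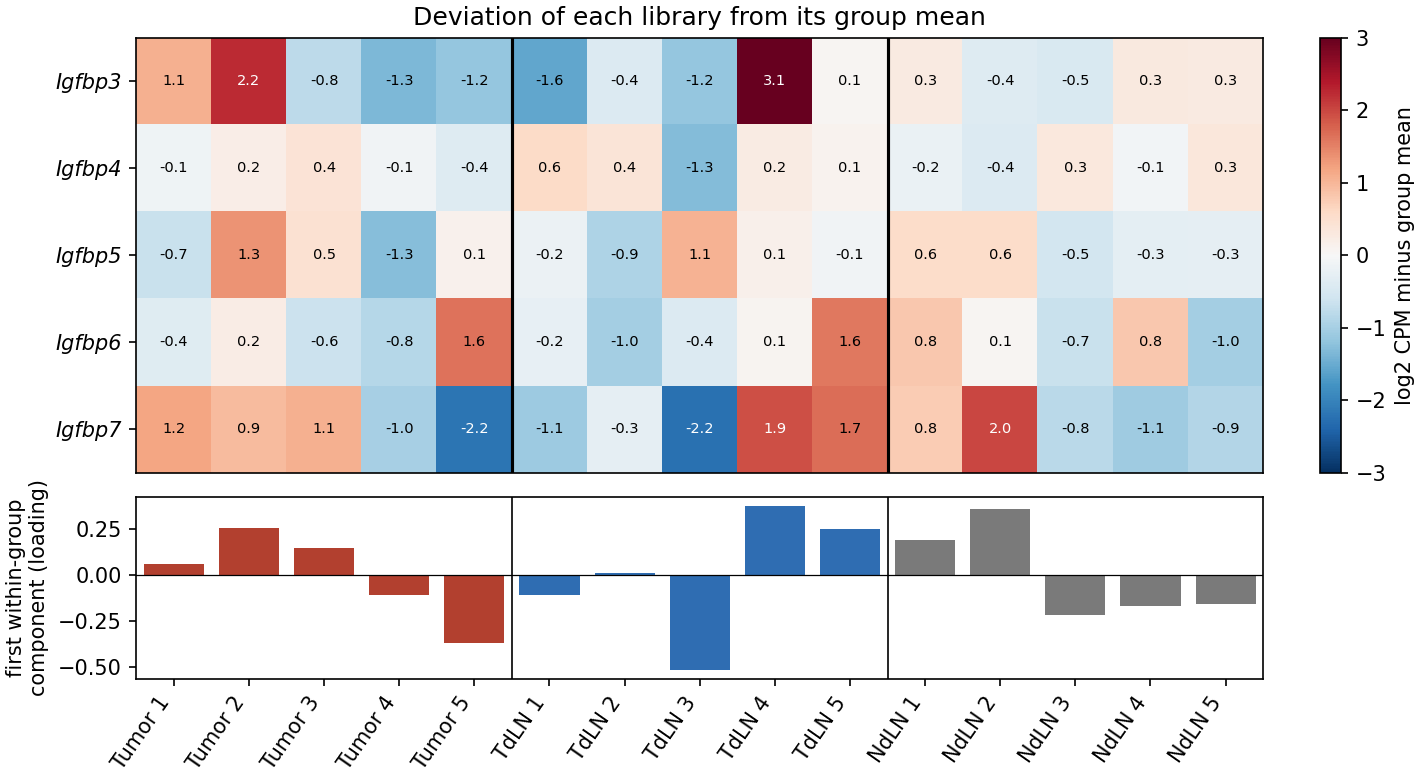
Deviation of each library from its group mean in log2 CPM for 5 members (upper panel, colour and number) and the library's value on the first within-group component (lower panel, bars, no unit). Igfbp7 is high in the libraries with high bars, such as TdLN 4 (1.94) and NdLN 2 (2.01), and low in TdLN 3 (-2.25).

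The summed blood endothelium markers, in which Plvap on average weighed most, moved beside Igfbp7 in the nodes. They were at 2984, 4279, 872, 5431 and 5256 CPM in TdLN libraries 1 to 5, the same order as Igfbp7. In NdLN libraries they were at 4634, 5522, 1427, 1514 and 2029 CPM, again highest in NdLN 2 and NdLN 1. In Tumor libraries, at 719.5, 1008, 1285, 819 and 752 CPM, the order differed from that of Igfbp7. Plvap, a protein of endothelial diaphragms, had the highest mean of the 9 in the nodes, at 3325 ± 1993 CPM in TdLN and 2501 ± 1942 CPM in NdLN libraries, with a lowest level of 314 CPM in TdLN and 923 CPM in NdLN. The means of the other 8 ran from 1.47 CPM (Sox17) to 283 CPM (Aqp1) in TdLN and from 2.65 CPM (Sox17) to 221 CPM (Aqp1) in NdLN libraries. None of the 9 was at 0 in a node library. With group means subtracted, Plvap had an r of 0.87 with Igfbp7. The other 8 were not followed apart from Plvap, so the order of the sum describes Plvap more than the list. The part of blood endothelial RNA in the Igfbp7 levels was not tested.

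For each member the genes most alike in pattern were found by Pearson r of log2 CPM. Over all 15 libraries, which fall into 3 groups, they were Pnrc1 (0.986), Timp2 (0.965) and Pawr (0.963) for Igfbp7, Map6 (0.978), Sdc2 (0.950) and Dkk3 (0.947) for Igfbp6, and Skil (0.967), Fmo5 (0.963) and Ell (0.953) for Igfbp5. For Igfbp4 they were Rftn1 (0.917), Rnpep (0.869) and Gnai2 (0.866), and for Igfbp3 they were Coq10a (0.915), Ubl3 (0.90) and Rcor1 (0.896). With group means subtracted, Tbx1 (0.996), Tmem165 (0.995) and Rnf11 (0.995) were nearest to Igfbp7, Fmo5 (0.844), Bmp4 (0.833) and Unk (0.790) to Igfbp5, and Aifm2 (0.860), Map6 (0.849) and Nfatc2 (0.799) to Igfbp6. Igfbp4 was then nearest to Rftn1 (0.937), Sh3kbp1 (0.911) and Hs3st3b1 (0.907), and Igfbp3 to Plekha3 (0.958), Ankrd40 (0.953) and Fbxl17 (0.948). Fmo5 for Igfbp5, Map6 for Igfbp6 and Rftn1 for Igfbp4 were on both lists. Ranked by Spearman's rho instead, 2 of the 3 genes stayed for Igfbp4 and Igfbp6, 1 for Igfbp7 and 0 for Igfbp3 and Igfbp5 over all libraries, and with group means subtracted 1 stayed for Igfbp5 and 0 for the other members.

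Other genes of the IGF pathway, which do not belong to the family as followed here, were read from 6 lists of 54 genes, and these were tested. The lists were made by function, but with earlier results of these data known. The naming rule also picks the called genes with the smallest adjusted p. Their p-values below therefore describe these libraries and are no independent test. Of them 46 passed the filter on low counts, while Pappa, Pappa2, Adam28, Ptprz1, Igfbp1, Igfbpl1, Ccn6 and Htra4 did not. Between Tumor and TdLN 19 rose, 15 fell and 12 did not pass, with a median log2 fold change of 0.01 against 0.04 over all tested genes. Of all tested genes 31.9% rose and 30.1% fell there. For Tumor over NdLN 16 rose, 17 fell and 13 did not pass (median -0.13 against 0.04), and for TdLN over NdLN 2 rose, 3 fell and 41 did not pass (median 0.03 against -0.01). Of all tested genes 34.0% rose and 32.5% fell in Tumor over NdLN, and 1.84% rose and 1.64% fell in TdLN over NdLN. The counts for each list below stand beside these same shares, and nothing is read from them. The Tumor libraries compared here are those with 19529 to 32495 CPM of melanoma markers, whose part in these changes was not tested.

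The ligand Igf1 and its receptor were lower in Tumor libraries. Igf1 averaged 23.2 ± 8.84 CPM in Tumor, 203 ± 35.4 CPM in TdLN and 214 ± 38.8 CPM in NdLN libraries, a log2 fold change of -3.13 ± 0.25 against TdLN (adjusted p = 5.6e-08) and -3.21 ± 0.25 against NdLN (adjusted p = 3.6e-08). No Tumor library reached any node library. Igf1r, the receptor that signals for IGFs, fell to 6.75 ± 2.79 CPM in Tumor, against 30.7 ± 7.59 CPM in TdLN and 28.7 ± 5.55 CPM in NdLN libraries (-2.18 ± 0.29 over TdLN, adjusted p = 1.19e-05, and -2.08 ± 0.29 over NdLN, adjusted p = 1.48e-05). Insrr, an orphan relative of the insulin receptor, was at 0.130 ± 0.212 CPM in Tumor, 8.95 ± 1.89 CPM in TdLN and 15.8 ± 3.46 CPM in NdLN libraries, and fell in both Tumor comparisons (adjusted p = 4.33e-06 over TdLN and 1.19e-06 over NdLN). Igfals, the acid-labile subunit that joins IGFBP3 and IGFBP5 in blood, rose to 4.32 ± 1.58 CPM in Tumor, against 0.195 ± 0.279 CPM in TdLN and 0.148 ± 0.123 CPM in NdLN libraries (4.46 ± 1.10 over TdLN, adjusted p = 0.00244, and 4.85 ± 1.12 over NdLN, adjusted p = 0.00139). These rest on 712 counts in Tumor, 32 in TdLN and 24 in NdLN libraries together, and without TdLN 5 the value over TdLN was 5.42. Igf2 (2.97 ± 0.944 CPM in Tumor, 4.49 ± 2.55 CPM in TdLN, 4.15 ± 4.39 CPM in NdLN) and its clearance receptor Igf2r (30.0 ± 9.77 CPM in Tumor, 34.1 ± 9.92 CPM in TdLN, 31.2 ± 11.3 CPM in NdLN) passed no test. Of these 7 ligand and receptor genes 1 rose, 4 fell and 2 did not pass in each Tumor comparison, and 0 of 7 passed between the nodes.

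Of 7 tested genes of proteases that cut IGF binding proteins and of their inhibitors, 3 rose and 3 fell in each Tumor comparison. Stc2, stanniocalcin-2, which inhibits PAPP-A, fell to 1.71 ± 1.22 CPM in Tumor, against 56.6 ± 12.9 CPM in TdLN and 39.4 ± 5.70 CPM in NdLN libraries (-5.02 ± 0.42 over TdLN, adjusted p = 7.97e-08, and -4.50 ± 0.41 over NdLN, adjusted p = 1.7e-07). Its relative Stc1 went the other way, at 103 ± 14.2 CPM in Tumor, 72.2 ± 26.3 CPM in TdLN and 47.7 ± 8.14 CPM in NdLN libraries, and rose by 1.12 ± 0.21 over NdLN (adjusted p = 0.000240). The metalloprotease gene Adam12 had an ordered pattern, at 43.2 ± 19.3 CPM in Tumor, 12.5 ± 4.80 CPM in TdLN and 4.46 ± 1.89 CPM in NdLN libraries. It rose in Tumor over TdLN (1.79 ± 0.36, adjusted p = 0.000515), in Tumor over NdLN (3.28 ± 0.38, adjusted p = 2.44e-06) and in TdLN over NdLN (1.49 ± 0.36, adjusted p = 0.0353), the last a call kept in 3 of 10 fits that left out 1 library, those without TdLN 3, TdLN 4 or NdLN 2. Another metalloprotease gene, Adam9, fell over TdLN (102 ± 26.0 CPM in Tumor, 264 ± 34.2 CPM in TdLN, -1.38 ± 0.19, adjusted p = 1.27e-05), and so did the complement protease gene C1ra (24.4 ± 14.4 CPM in Tumor, 106 ± 17.5 CPM in TdLN, -2.12 ± 0.30, adjusted p = 1.93e-05).

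Among 6 tested genes of proteins that bind members, Cd93, the endothelial receptor of IGFBP7, fell to 28.3 ± 8.30 CPM in Tumor, against 152 ± 23.4 CPM in TdLN and 202 ± 26.4 CPM in NdLN libraries (-2.43 ± 0.19 over TdLN, adjusted p = 3.62e-08, and -2.84 ± 0.19 over NdLN, adjusted p = 6.69e-09). Lrp1, an endocytic receptor for which IGFBP3 is a ligand, rose to 69.4 ± 37.3 CPM in Tumor, against 2.60 ± 1.20 CPM in TdLN and 7.65 ± 4.61 CPM in NdLN libraries (4.74 ± 0.62 over TdLN, adjusted p = 9.86e-06, and 3.18 ± 0.58 over NdLN, adjusted p = 0.000173). Tmem219, a second receptor of IGFBP3, rose over NdLN by 0.60 ± 0.13 (adjusted p = 0.000673) and over TdLN by 0.37 ± 0.13 (adjusted p = 0.0187). Its call over TdLN was lost without Tumor 4 or TdLN 5, with upper quartile scaling (0.32) and in a fit of only the 2 groups (0.35). Vtn, the matrix protein vitronectin, fell in both Tumor comparisons (-3.61 ± 0.53 over TdLN, adjusted p = 3.14e-05, and -3.97 ± 0.54 over NdLN, adjusted p = 1.17e-05). In this list 2 rose and 2 fell against TdLN, 2 rose and 3 fell against NdLN, and 0 passed between the nodes.

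Relatives that carry an IGFBP domain held 4 of the 5 pathway genes that passed between the nodes. Ccn1, a matrix protein of early growth responses, averaged 677 ± 71.4 CPM in Tumor, 2760.5 ± 248 CPM in TdLN and 5351 ± 762 CPM in NdLN libraries, and no 2 groups overlapped. It fell in TdLN over NdLN (-0.95 ± 0.11, adjusted p = 0.00111) and in Tumor over TdLN (-2.03 ± 0.12, adjusted p = 1.1e-09). Ccn5 had the reverse order, at 26.7 ± 9.85 CPM in Tumor, 11.2 ± 4.08 CPM in TdLN and 3.55 ± 0.567 CPM in NdLN libraries, and rose in TdLN over NdLN (1.65 ± 0.29, adjusted p = 0.00627). Ccn2 fell between the nodes (89.6 ± 15.3 CPM in TdLN, 145 ± 29.5 CPM in NdLN, -0.69 ± 0.16, adjusted p = 0.0281) and so did Kazald1 (7.42 ± 2.10 CPM in TdLN, 17.1 ± 7.20 CPM in NdLN, -1.21 ± 0.29, adjusted p = 0.0320). The call of Ccn2 was lost without TdLN 1, TdLN 2, TdLN 3, NdLN 2 or NdLN 4, and that of Kazald1 without TdLN 1, TdLN 2, TdLN 3, NdLN 1, NdLN 2 or NdLN 3. Without NdLN 1 and NdLN 2 together the TdLN over NdLN calls of Ccn2, Kazald1 and Ccn5 were lost. Ccn4 (23.9 ± 5.99 CPM in Tumor, 0.790 ± 0.464 CPM in TdLN, 0.529 ± 0.247 CPM in NdLN) and the serine protease gene Htra3 (81.6 ± 34.0 CPM in Tumor, 2.44 ± 1.41 CPM in TdLN, 3.77 ± 0.845 CPM in NdLN) rose in both Tumor comparisons, with log2 fold changes over TdLN of 4.91 ± 0.42 for Ccn4 (adjusted p = 9.18e-08) and 5.06 ± 0.41 for Htra3 (adjusted p = 5.43e-08). Of the 9 tested relatives 6 rose and 2 fell in Tumor over TdLN, 4 rose and 3 fell in Tumor over NdLN, and 1 rose and 3 fell in TdLN over NdLN.

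Signalling genes downstream of the receptor changed in both directions, and 0 of 14 passed between the nodes. In Tumor over TdLN 4 rose, 4 fell and 6 did not pass, and in Tumor over NdLN 3 rose, 4 fell and 7 did not pass. Akt1, a kinase activated by IGF1 receptor signalling, rose to 307 ± 240.1 CPM in Tumor, against 79.3 ± 37.6 CPM in TdLN and 46.9 ± 12.0 CPM in NdLN libraries (1.95 ± 0.46 over TdLN, adjusted p = 0.00184, and 2.71 ± 0.48 over NdLN, adjusted p = 0.000132). Akt2 rose as well (0.78 ± 0.17 over TdLN, adjusted p = 0.000774). The adaptor gene Shc1 fell (-0.71 ± 0.13 over TdLN, adjusted p = 0.000281, and -0.95 ± 0.13 over NdLN, adjusted p = 1.47e-05), and Pik3r1, a regulatory subunit of PI3 kinase, fell by 0.47 ± 0.13 against TdLN (adjusted p = 0.00412). Irs1, an adaptor of the receptor, is among the 4 that rose over TdLN, with 69 counts in Tumor, 2 in TdLN and 22 in NdLN libraries together, and is given no fold change.

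All 3 genes of proteins that bind IGF2 mRNA rose in both Tumor comparisons. Igf2bp3 averaged 19.9 ± 2.80 CPM in Tumor, 0.515 ± 0.309 CPM in TdLN and 0.454 ± 0.288 CPM in NdLN libraries (5.26 ± 0.65 over TdLN, adjusted p = 5.53e-06, and 5.44 ± 0.66 over NdLN, adjusted p = 3.53e-06). Igf2bp2 averaged 5.04 ± 2.34 CPM in Tumor, 0.124 ± 0.122 CPM in TdLN and 0.225 ± 0.133 CPM in NdLN libraries (adjusted p = 1.92e-05 over TdLN and 5.01e-05 over NdLN). Igf2bp1 had 114 counts in Tumor, 1 in TdLN and 6 in NdLN libraries together.

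**Figure D5:**
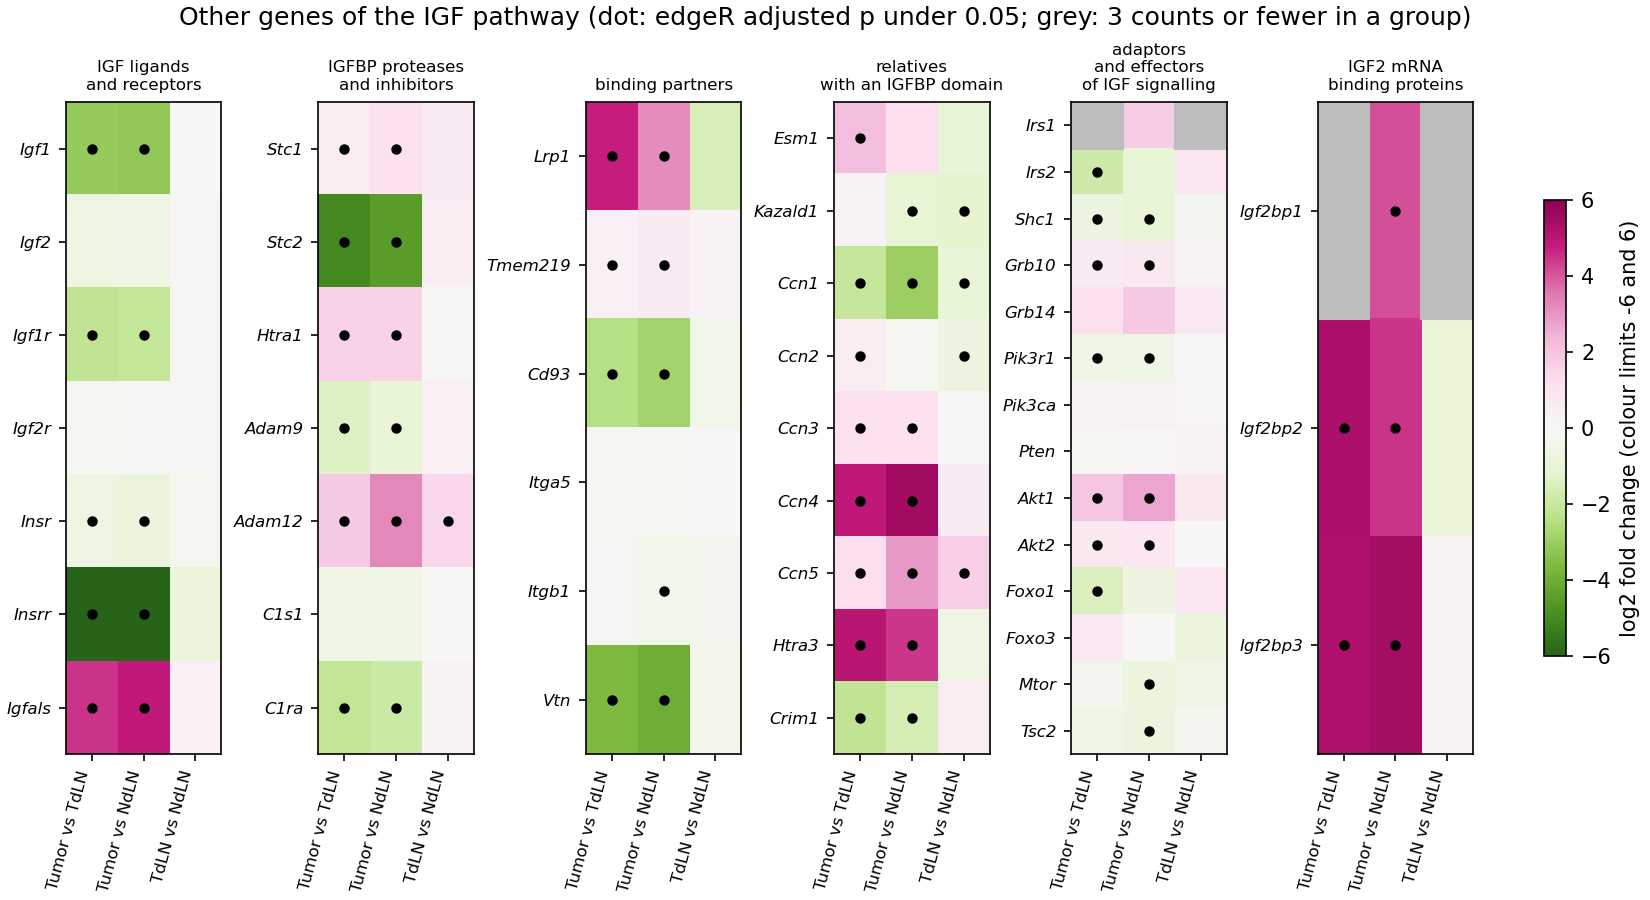
Log2 fold change of the 46 tested genes of the IGF pathway in the 3 comparisons (columns, first-named over second-named group), by list, with a dot where the edgeR adjusted p was under 0.05 and grey, with no dot drawn, where a group had 3 counts or fewer in all. Both Tumor columns hold dots in every list, while the TdLN over NdLN column holds 5, those of Adam12, Kazald1, Ccn1, Ccn2 and Ccn5.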

How the data were processed

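The deposited table holds raw counts per gene, which the authors left unnormalized. The submitters' processing notes name featureCounts 1.4.6, STAR 2.4, CASAVA 1.8.2 and the build GRCm38. What they leave out, the annotation release and the strand setting, is not given in the sources used here. Per the labels' protocols, amplified cDNA of 1 ng RNA was read as single reads of 50 bases, so counts are not independent molecules.

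IDs were named with GENCODE M21, which held 21628 of 21839. Differences were fitted with edgeR 4.0.16 in R 4.3.3 (TMM, filterByExpr, robust glmQLFit, glmQLFTest) in 1 fit of 15 libraries, and a gene was called at a Benjamini-Hochberg adjusted p under 0.05 over 13887 genes. The SE of a log2 fold change was worked back from the F statistic of glmQLFTest, as its absolute value over the root of F. CPM are edgeR's, scaled by TMM. Log2 CPM for likeness used a prior count of 2 and genes with an average of at least 3. The same method was also run on simulated counts, with the 2 groups of each comparison only and not in a fit of 15 libraries. Its outcome is not given here, and nothing is read from it. Members, lists, tests and the naming rule (up to 4 called genes per list and comparison with the smallest adjusted p, and the 3 genes most like each member) were chosen with earlier results of these data known. The promoter sequences are RefSeq's. Alternatives were RLE and upper quartile factors, no filter, at least 10 CPM in 5 libraries, a replicate block, 2 groups only, DESeq2 1.42.0 and each library left out. Leaving out NdLN 1 and NdLN 2 together, and the within-group component, were added after seeing the data. No pair of libraries of a group agreed within sampling noise.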

Additional observations from a re-analysis of the deposited data

Results flagged for a closer look

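In 3 of 15 groups of member levels, a single library stood apart from the others of its group by Dixon's test at 95%. Chance gives about 1 in 20 if values are normally distributed, which was not checked. The test was run on untransformed CPM, so the flags only mark libraries to look at. Igfbp3 was at 40.7 CPM in TdLN 4, against 1.59 to 4.94 CPM in the other TdLN libraries. Igfbp6 was at 164 CPM in Tumor 5, against 29.1 to 61.6 CPM in the other Tumor libraries. Igfbp6 was also at 2.12 CPM in TdLN 5, against 0.295 to 0.704 CPM in the other TdLN libraries.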

How the results depend on the processing

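Between TdLN and NdLN 484 genes were called, 972 with DESeq2, 188 without NdLN 1 and NdLN 2, and 225 to 564 with 1 library left out. Of the 46 pathway genes 5 were called there, 2 without NdLN 1 and NdLN 2 and 2 to 6 with 1 library left out. The cause of the DESeq2 difference was not tested, and the other settings hold fewer samples. Tumor over TdLN gave 8614 calls and 8207 to 8557 with 1 library left out (pathway genes 34, and 29 to 33), and Tumor over NdLN 9230 and 8870 to 9156 (33, and 32 to 34). No direction of a member, or of a pathway gene chosen by the naming rule in the comparison that chose it, was reversed in any alternative run, apart from Igfbp3 between the nodes, which was not called and was at 0.15 with all libraries, at -0.70 with the replicate block and at -1.65 without TdLN 4. Deviations of the 15 same-numbered pairs of libraries correlated at -0.21 to 0.25, with 4 over 0.1. Differently numbered pairs were not compared, so this cannot show whether libraries of the same number share an animal. With the number as a replicate block, calls were 400 for TdLN over NdLN, 8381 for Tumor over TdLN and 8995 for Tumor over NdLN, and Igfbp5 between the nodes, Igfbp4 and Igfbp7 between Tumor and TdLN, and Kazald1 between the nodes were not called. A fit of only the 2 groups compared dropped the calls of Igfbp3 and Tmem219 between Tumor and TdLN, and called Igfbp4 between Tumor and NdLN (-0.53). Depth limits Igfbp2, Igf2bp1 and Irs1, each with 16 counts or fewer in the TdLN libraries together.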

Other observations

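Genes beside the members on the chromosome had levels of their own. Spryd3 and Soat2, on either side of Igfbp6, passed in no comparison, with Spryd3 at 57.9 ± 9.37 CPM in Tumor, 65.1 ± 4.37 CPM in TdLN and 63.1 ± 9.86 CPM in NdLN libraries. Top2a, a DNA topoisomerase of dividing cells beside Igfbp4, was at 218 ± 18.2 CPM in Tumor, 93.2 ± 56.0 CPM in TdLN and 22.1 ± 7.03 CPM in NdLN libraries and rose in all 3 comparisons (edgeR, TdLN over NdLN 2.08 ± 0.37, adjusted p = 0.00627). Tns3, the nearest protein-coding gene to Igfbp3 on the side away from Igfbp1, lies 1217728 bases away. It fell in both Tumor comparisons (-1.39 ± 0.18 against TdLN, adjusted p = 1.03e-05). Tns4, 11285 bases from Igfbp4, had 1072 counts in Tumor, 4 in TdLN and 15 in NdLN libraries together. Adgrl3, 3612096 bases from Igfbp7, had 2 counts in Tumor, 357 in TdLN and 439 in NdLN libraries together. The ribosomal protein gene Rpl37a, the neighbour of Igfbp2 on the side away from Igfbp5, passed in no comparison.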
